A study of Mus musculus with 6 samples.

Results

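Splenic B cells of Xid mice were compared with those of wild type CBA mice on 4 Affymetrix MG_U74Av2 arrays, 2 per group, taken from a series of 6. The Xid mice were adult animals of the strain CBA/N, whose Btk gene carries the R28C mutation, and the controls were adult CBA mice without a mutation in the labels. The remaining 2 arrays held B cells of adult Btk KO mice, a knockout made on SW129 and crossed to CBA for 9 generations, and they served for the shared estimate of spread and for values side by side. CBA/N is a separate strain, so an effect of R28C and an effect of another strain difference cannot be told apart. The arrays numbered 1 came first, and those numbered 2 used RNA prepared anew from other mice; these sets are called run 1 and run 2. Within run 1, CBA and Xid were hybridised on the same day and Btk KO on another, and in run 2 all 3 groups shared a day. The labels do not say whether an RNA came from 1 animal or several, nor how the B cells were purified. All probe sets other than the array's controls were examined, 12422 in number, of which 7453 were bright enough to test. A probe set is a group of short probes that read 1 transcript, and its intensity is a linear brightness scaled to the same trimmed mean on each array.

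Btk is a cytoplasmic kinase of the Tec family. After the B cell receptor binds antigen, Syk and the adaptor Blnk bring Btk to phospholipase C gamma, which raises calcium and opens the NFAT and NF-kB routes. The R28C change lies in the domain with which Btk binds membrane lipids. Xid mice are known for fewer mature follicular B cells, few B-1 cells and poor antibody responses to polysaccharides.

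The median intensity was between 32.65 and 36.55 on these 4 arrays. The ratio of 3' to 5' control probes for Gapdh, which rises as RNA breaks down, was 1.16 on CBA and 1.61 on Xid in run 1, and 0.756 and 0.868 in run 2. The same ratio for actin was 1.66 on CBA and 1.66 on Xid in run 1, and 1.15 and 1.10 in run 2. On the array of Btk KO in run 1 the Gapdh ratio was 10.4 and that for actin 3.61. This bears on the spread estimate shared by all groups and on values quoted for that array. The B lineage genes Cd79a, Cd79b and Ms4a1, which encode the signalling chains of the receptor and the surface protein CD20, were between 3805.0 and 6331.7 on the 4 arrays. Cd3e of T cells was at most 56.2, and the T cell genes Cd3g, Cd3d and Cd8a were too dim to keep. Other T cell genes reached higher values on these arrays, with Lef1 at 111.1 to 151.5 and Zap70 at 48.0 to 151.2.

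Btk transcript was present in Xid at the CBA level. The brighter Btk probe set was 874.1 and 749.8 in CBA and 841.0 and 643.9 in Xid, so the groups overlapped. In Btk KO it was 276.1 and 173.6. The difference between Xid and CBA was -0.14 ± 0.27 on the log2 scale (SE of the fit without the run as a block, here and below, with 2 arrays per group; log2 of intensity plus 6), with limma adjusted p = 1.0. Whether the probes cover the mutated base is not given in the sources used here, so this value does not check the genotype. Of 5 genes beside Btk on the X chromosome that the array holds, Armcx2, Hnrnph2, Timm8a1 and Cstf2 were measured, at -0.46, 0.35, 0.14 and -0.05. None passed with limma (0 in either fit, and 0 at an unadjusted p under 0.05).

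Few transcripts passed between Xid and CBA; they included some that fell by a large factor and 8 genes of the macrophage list. Ctse and 3 probe sets without a gene symbol fell to between 4.91% and 18.1% of CBA, and 1 probe set annotated to several genes rose from near the floor. Without a block for the run, limma called 1 of 7453 probe sets higher, or 0.0134%, and 4 lower, or 0.0537%, at a Benjamini-Hochberg adjusted p under 0.05. With the run as a block it called 27 higher (0.362%) and 9 lower (0.121%), and the 5 were among these 36. An unadjusted limma p under 0.05 was reached by 330 probe sets without the block and 604 with it. If no probe set differed, 373 would be expected. Of the 36, 23 higher and 6 lower probe sets carry 1 gene symbol, 4 carry several and 3 none. The count rests on single arrays. Without the block it was 0 when CBA of run 1, CBA of run 2 or Xid of run 1 was left out, with 264, 225 and 252 probe sets at an unadjusted p under 0.05. It was 1, Ctse, without Xid of run 2 and 9 without Btk KO of either run. With the block the count was 7 without CBA of run 1, 14 without CBA of run 2, 4 without Xid of either run, 76 without Btk KO of run 1 and 73 without Btk KO of run 2. Of the 27 higher calls with the block, 1 remained without CBA of run 1, 5 without CBA of run 2, 0 without Xid of run 1 and 1 without Xid of run 2, and all 27 remained without either Btk KO array. Of the 9 lower calls 4, 4, 4 and 3 remained without these CBA and Xid arrays in the same order.

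Each run gives its own comparison of 1 Xid with 1 CBA array, and these share no array. Across all 7453 probe sets the differences of run 1 and run 2 had a Pearson correlation of 0.27 and a Spearman correlation of 0.15; probe sets are not independent replicates, and these values are a description. The SD of the differences was 0.48 in run 1 and 0.46 in run 2. Agreement in direction grew with size up to a point. Among 5940 probe sets that differed by less than 0.5 in run 1, 51.2% had the same direction in run 2. The share was 59.0% of 1149 at 0.5 to 1, 66.3% of 261 at 1 to 1.5, 74.6% of 71 at 1.5 to 2, and 65.6%, or 21 of 32, at 2 or more. Chosen by run 2 and read in run 1, the shares were 50.8% of 6002, 674 of 1123, 73.7% of 236, 75.8% of 62 and 76.7% of 30 in the same order of size. Some of the largest differences of run 1 had the opposite sign in run 2. Fosb, an immediate early gene, differed by 2.83 in run 1 and by -0.23 in run 2. The probe set of Snrp1c-ps2, a pseudogene, differed by -2.67 in run 1 and by 1.73 in run 2.

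**Figure D1:**
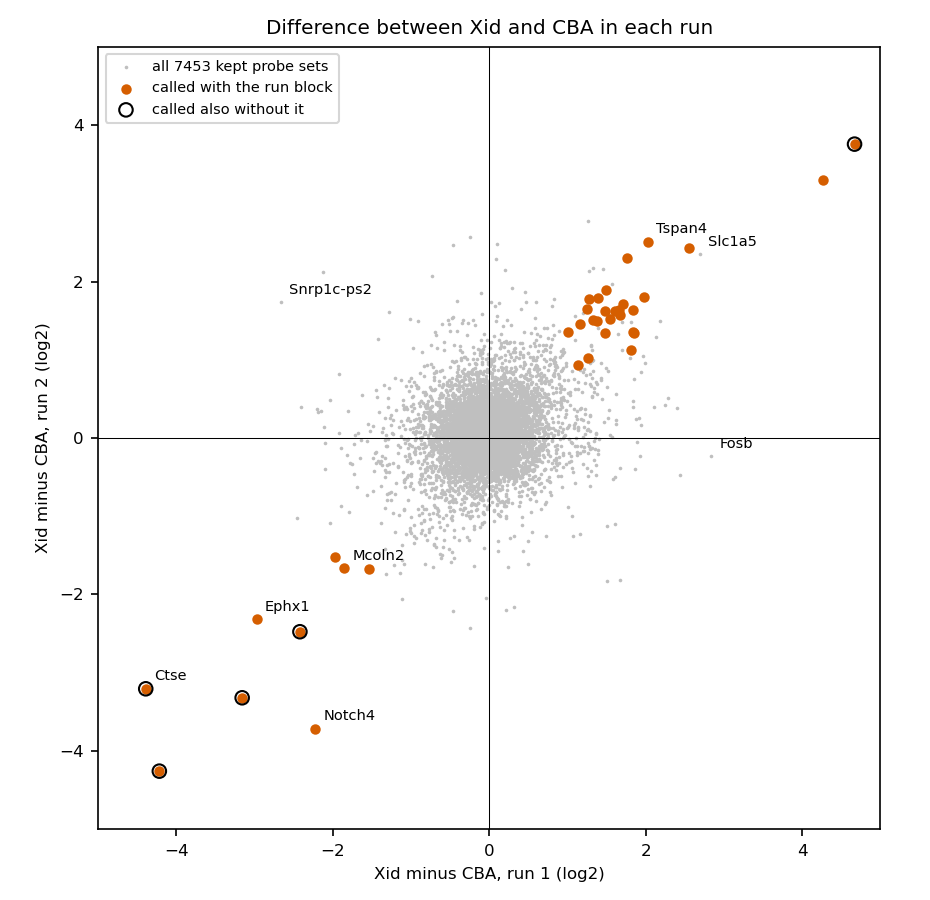
Each point is 1 of 7453 probe sets, with the log2 difference Xid minus CBA in run 1 on the horizontal axis and in run 2 on the vertical axis. Orange points passed with the run block and circled ones also without it. The called points lie along the diagonal. A call favours this position, since a gap between the runs raises the error, so it does not measure agreement between runs. Fosb (2.83 and -0.23) and Snrp1c-ps2 (-2.67 and 1.73) lie far from the diagonal.

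The Ctse signal was among the largest differences and rested on 1 probe set. Ctse encodes cathepsin E, an aspartic protease of endosomes. Its probe set 104696_at was 781.8 and 896.7 in CBA, 31.5 and 91.8 in Xid, and 701.5 and 703.7 in Btk KO. Both Xid arrays lay far below the other 4. The difference from CBA was -3.80 ± 0.40, with limma adjusted p = 0.032 without and 0.0050 with the block, and from Btk KO it was -3.55 (adjusted p = 0.052 without and 0.0097 with the block). The call without the block was lost under quantile normalization (adjusted p = 0.062), with a pseudocount of 1 (0.061) and without the intensity trend (0.092). It was also lost without CBA of run 1 (0.35), CBA of run 2 (0.47) or Xid of run 1 (0.058). The other Ctse probe sets did not show the difference. The set 93861_f_at was 266.2 and 396.4 in CBA and 214.6 and 455.4 in Xid, and 93860_i_at was 222.4 and 254.7 against 173.1 and 216.8. Probes of a set with the suffix f match related transcripts, so the gene that 93861_f_at reads is uncertain.

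A trio of probe sets with consecutive numbers and no gene symbol fell together. The set 92780_f_at was 1521.1 and 1393.8 in CBA, 76.0 and 67.1 in Xid, and 784.1 and 447.5 in Btk KO. The set 92778_i_at was 2171.7 and 2205.5 in CBA, 400.5 and 391.3 in Xid, and 1120.9 and 949.4 in Btk KO. The set 92779_f_at was 254.1 and 194.9 in CBA, 23.1 and 14.1 in Xid, and 122.5 and 84.1 in Btk KO. In each, both Xid arrays were lowest and both Btk KO arrays lay between Xid and CBA. The differences between Xid and CBA were -4.24 ± 0.28, -2.45 ± 0.19 and -3.24 ± 0.30 (limma adjusted p = 0.0052, 0.0092 and 0.022). Each call was lost when any 1 of the CBA and Xid arrays was left out, at adjusted p between 0.058 and 0.32. The suffix f marks probes that match related transcripts, so these are not taken as 3 separate transcripts.

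On the higher side the largest signals came from probe sets that the annotation assigns to several genes, and no gene is named from them. The set 93321_at was 9.6 and 11.4 in CBA, 391.2 and 229.4 in Xid, and 8.2 and 1.9 in Btk KO. Only the Xid arrays carried a signal above the dim range there. The difference from CBA was 4.21 ± 0.41 (limma adjusted p = 0.022 without and 0.0050 with the block), a size that depends on the pseudocount; with a pseudocount of 1 the adjusted p was 0.073. The call was also lost when any 1 of the CBA and Xid arrays was left out, at adjusted p between 0.16 and 0.39. The set 94224_s_at was 45.6 and 76.0 in CBA, 990.2 and 804.4 in Xid, and 50.5 and 140.9 in Btk KO. The set 97448_at was 340.2 and 260.2 in CBA, 1052.9 and 815.3 in Xid, and 443.0 and 300.9 in Btk KO. Both passed with the block alone (adjusted p = 0.0091 and 0.0094). Another such set, 100681_f_at, was 4.6 and 17.0 in CBA and 56.0 and 117.4 in Xid (0.026 with the block).

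Mcoln2, Nfatc1, Ccr1, Ephx1 and a Notch4 probe set fell with the block. Mcoln2, a cation channel of lysosomes, was 227.9 and 224.3 in CBA and 58.6 and 66.6 in Xid. Nfatc1, the calcineurin-dependent transcription factor at the end of the calcium route of the B cell receptor, was 322.7 and 578.5 in CBA and 107.3 and 176.7 in Xid. Ccr1, a receptor for inflammatory chemokines, was 100.5 and 99.8 in CBA and 21.1 and 30.9 in Xid. For all of these both Xid arrays lay below both CBA arrays, and the differences were -1.76, -1.61 and -1.75 (limma with the block, adjusted p = 0.019, 0.019 and 0.044; without it 0.058, 0.58 and 0.20). The Nfatc1 values of run 2 were above those of run 1 in both groups, and its standard error was 0.44 without and 0.18 with the block. Btk KO was low in these genes too. There Mcoln2 was 57.2 and 47.0, Nfatc1 80.8 and 183.5, and Ccr1 31.7 and 45.8.

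Ephx1, the microsomal epoxide hydrolase, was 142.4 and 230.2 in CBA and 12.9 and 41.5 in Xid, a difference of -2.64 (limma adjusted p = 0.27 without and 0.019 with the block). A probe set annotated to Notch4, a receptor best known from endothelium, was 204.5 and 356.8 in CBA and 39.0 and 21.6 in Xid, a difference of -2.97 (0.051 and 0.019). Its suffix f marks probes that match related transcripts, so the gene is uncertain. In Btk KO, Ephx1 was 8.8 and 14.6 and the Notch4 set 68.7 and 86.5, also below both CBA arrays. Next in rank, and not passing in either fit, were Cd200, a membrane protein that restrains myeloid cells, at -1.44 (0.074 with the block), and the heavy chain segment Ighv14-2, whose probe set 92741_g_at differed by -1.37 (0.092).

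Among the 23 higher probe sets with 1 symbol, 8 belong to the list of macrophage and monocyte markers, which holds 25 measured genes. Over all 5596 measured genes, each by its brightest probe set (the highest mean log2 intensity over the 6 arrays), 22 rose with the block (0.393%). Without CBA of run 1, Xid of run 1 or Xid of run 2 none of the 8 passed (0, limma with the block), and without CBA of run 2 Csf1r and C1qc did. Csf1r, the receptor for macrophage colony-stimulating factor, was 149.0 and 319.7 in CBA and 551.8 and 822.7 in Xid. Mrc1, the mannose receptor, was 37.4 and 38.4 in CBA and 99.3 and 145.6 in Xid. Apoe, a lipid carrier secreted by macrophages, was 113.9 and 220.3 in CBA and 332.5 and 835.2 in Xid. The groups did not overlap in any of them, and both Xid arrays lay above both CBA arrays in 17.0% of all 7453 probe sets. The differences were 1.60 ± 0.37, 1.53 ± 0.25 and 1.70 ± 0.51 (limma with the block, adjusted p = 0.026, 0.045 and 0.016; without it 0.47, 0.17 and 0.65). A second, dim Csf1r probe set differed by -0.03.

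C1qb and C1qc, both in that list, and Fcna rose with the block. The C1q genes encode the chains of the molecule that starts the classical complement pathway, and C1qb and C1qc lie side by side on chromosome 4. C1qb was 154.3 and 256.1 in CBA and 409.7 and 732.8 in Xid, and C1qc was 291.7 and 656.1 against 1038.9 and 1441.6. Their differences were 1.43 and 1.47 (limma with the block, adjusted p = 0.016 and 0.041). A second, dimmer C1qb set, 162276_i_at, did not show this rise. It was 61.7 and 51.6 in CBA and 61.4 and 77.5 in Xid, a difference of 0.265. C1qa, the third chain, was 339.0 and 606.6 against 841.4 and 1388.9, a difference of 1.24 that did not pass (0.48 with the block). On the Btk KO array of run 1, with the Gapdh ratio of 10.4, C1qa was 294.5, against 1975.6 in run 2. On the same arrays C1qb was 650.7 and 1055.1 and C1qc 1553.4 and 2040.0. The spread between these arrays enters the error of each gene, and its part in the C1qa result was not tested. Fcna, a ficolin of the lectin pathway, was 107.6 and 143.3 against 263.0 and 460.9, a difference of 1.44 (0.026 with the block).

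Promoters of 4 of these genes are shown since the genes rose together and each holds the core of the box bound by PU.1, the factor of macrophages and B cells. They are RefSeq sequences of GRCm38.p6, the 200 bases before the annotated start, 5' to 3' on the gene's strand, with GAGGAA or its reverse TTCCTC in capitals. C1qb is at chr4:136886201-136886400, minus strand, C1qc at chr4:136892915-136893114, minus strand, Mrc1 at chr2:14229214-14229413, plus strand, and Fcna at chr2:25627975-25628174, minus strand.
C1qb: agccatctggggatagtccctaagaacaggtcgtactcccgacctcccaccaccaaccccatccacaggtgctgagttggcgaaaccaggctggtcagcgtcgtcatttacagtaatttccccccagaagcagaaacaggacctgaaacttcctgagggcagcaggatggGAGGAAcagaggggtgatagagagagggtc
C1qc: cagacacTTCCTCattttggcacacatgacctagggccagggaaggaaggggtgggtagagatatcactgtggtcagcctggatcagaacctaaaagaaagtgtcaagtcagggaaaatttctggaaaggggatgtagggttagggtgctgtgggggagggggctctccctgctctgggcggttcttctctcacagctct
Mrc1: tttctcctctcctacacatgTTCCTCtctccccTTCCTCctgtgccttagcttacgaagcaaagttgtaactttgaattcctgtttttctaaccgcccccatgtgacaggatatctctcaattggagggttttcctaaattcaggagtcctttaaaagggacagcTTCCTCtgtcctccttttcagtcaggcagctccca
Fcna: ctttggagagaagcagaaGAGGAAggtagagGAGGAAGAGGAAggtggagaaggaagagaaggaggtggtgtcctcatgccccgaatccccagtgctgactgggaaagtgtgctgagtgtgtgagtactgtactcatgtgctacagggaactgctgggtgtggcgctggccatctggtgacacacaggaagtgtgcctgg
The promoters of C1qb and C1qc hold the motif once, and those of Mrc1 and Fcna hold it 3 times. Over the 250 bases before the start, on both strands, 5 of 17 higher genes with a promoter in the table held it (29.4%), as did 6252 of all 27025 promoters (23.1%) and 1021 of 4517 promoters of measured genes (22.6%). Among the lower genes it was 2 of 4. The share among the higher genes is near that of all promoters, and a match of 6 letters is no evidence of a bound site.

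Vcam1, Spic and Ctsd completed the macrophage genes that passed. Vcam1, an adhesion molecule of splenic macrophages and stroma, was 304.7 and 369.9 in CBA and 770.5 and 1064.4 in Xid. Spic, a transcription factor that red pulp macrophages need, was 54.5 and 75.7 against 162.8 and 201.4. Ctsd, a lysosomal aspartic protease, was 338.8 and 539.8 against 751.4 and 1036.5. Both Xid arrays were above both CBA arrays for each gene, with differences of 1.42, 1.41 and 1.03 (limma with the block, adjusted p = 0.034, 0.034 and 0.047). Further Vcam1 probe sets differed by 1.55 and 0.62.

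Hfe, Tspan4, Abcc3, Gatm, Glipr2, Cadm1, Slpi, Id2 and D13Ertd608e also rose with the block. Hfe, which sets iron uptake through the hepcidin axis, was 30.0 and 38.0 in CBA and 123.0 and 130.4 in Xid (difference 1.74; limma adjusted p = 0.026 with and 0.17 without the block). Tspan4, a tetraspanin, was 18.2 and 10.6 against 92.7 and 88.6 (2.27; 0.019 and 0.056), and its CBA values are near the floor. Abcc3, an organic anion transporter, was 53.4 and 47.8 against 149.8 and 179.9 (1.59; 0.023 and 0.080). Both Xid arrays lay above both CBA arrays in these genes, a separation that a call favours and that 17.0% of all 7453 probe sets showed. Gatm, the first enzyme of creatine synthesis, was 35.7 and 28.2 against 109.8 and 99.2 (1.55), and Glipr2 was 26.3 and 22.6 against 103.6 and 134.6 (2.03). Cadm1, an adhesion molecule, was 210.7 and 348.7 against 768.2 and 903.0 (1.60) on 93604_f_at, a set whose suffix f marks probes that match related transcripts. Its other probe sets, at 0.72 and 1.14, had the same direction and did not pass (limma adjusted p = 0.26 and 0.27 with the block). The CBA values of the last set, 9.4 and 17.3, are near the floor. Slpi, a secreted protease inhibitor, differed by 1.14 on the set that passed and by 0.55 and -0.10 on its other sets. Id2, an inhibitor of helix-loop-helix factors, differed by 1.19, and D13Ertd608e by 1.71.

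Tissue kallikreins, a cluster of serine proteases on chromosome 7, formed a second group of neighbours. Klk1 was 29.8 and 61.0 in CBA and 135.6 and 228.2 in Xid. Klk1b1 was 35.2 and 78.2 against 123.7 and 256.1, and Klk1b22 was 22.7 and 48.6 against 85.0 and 156.8. The differences were 1.89, 1.65 and 1.62 (limma with the block, adjusted p = 0.019, 0.044 and 0.034). The suffix f of these probe sets marks probes that match related family members, so they are not taken as separate changes. Of 28 named called genes in the gene table, 5 had another called gene within 10 genes on either side, the kallikreins and the C1q pair. Over all 5502 measured genes 151 lay so near a called gene (2.74%). Because the kallikrein probes can match each other's transcripts, their part of the count of 5 shows no separate neighbouring changes. No clustering is read from it.

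**Figure D2:**
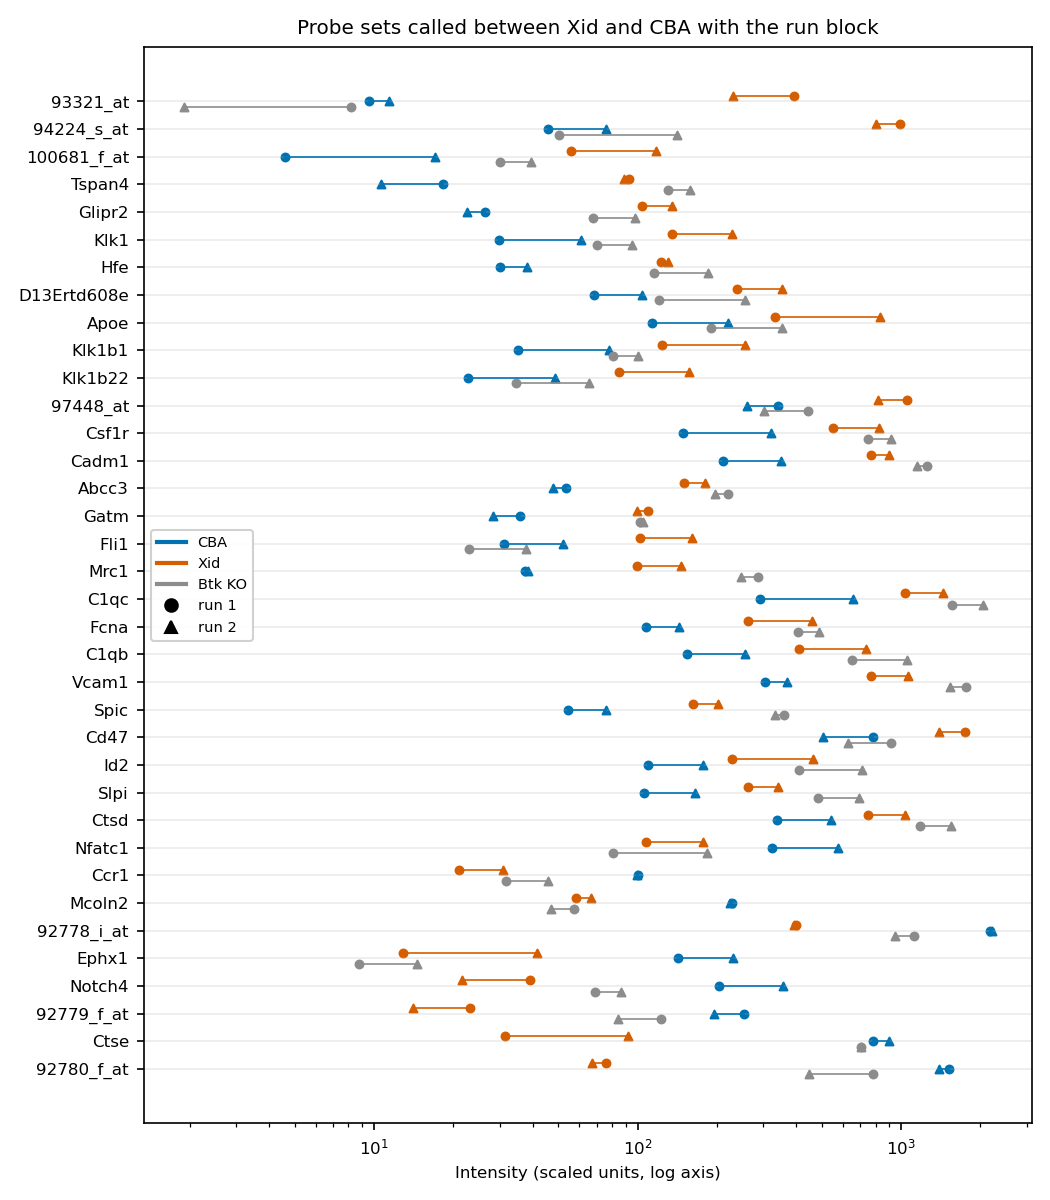
Intensity (scaled units, log axis) of the 36 probe sets called with the run block, ordered by their difference, on the arrays of CBA (blue), Xid (orange) and Btk KO (grey); circles are run 1 and triangles run 2. Ctse is near 800 in CBA and Btk KO (701.5 to 896.7) and at 31.5 and 91.8 in Xid, while Mrc1 is higher in Btk KO (287.2 and 246.5) than in Xid (99.3 and 145.6).

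A direct contrast of Xid with Btk KO was added after the values were seen. It uses the same 2 Xid arrays as the contrast with CBA. A probe set that is extreme on these arrays can pass in both, so passing in both is not separate support. With the block limma called 6 probe sets higher (0.0805%) and 8 lower (0.107%) in Xid, and 3 in all without it. The block treats the arrays numbered 1 as a run, although Btk KO of run 1 was hybridised on another day than Xid and had the Gapdh ratio of 10.4. Without that array the contrast with the block called 12, 5 higher and 7 lower. Of the 36 probe sets called against CBA, 4 higher and 4 lower passed with all arrays, and 6 of these 8 also without that array; Fli1 (adjusted p = 0.11) and 92778_i_at (0.14) did not. The 8 were Ctse and the numbered trio on the lower side, and 93321_at, 94224_s_at, 97448_at and Fli1 on the higher side. Fli1, an Ets family transcription factor of blood cells, was 31.0 and 51.9 in CBA, 101.9 and 160.3 in Xid, and 22.9 and 37.6 in Btk KO. Both Xid arrays were highest, with a difference of 1.92 from Btk KO (adjusted p = 0.031 with and 0.50 without the block) and 1.53 from CBA (0.044 with and 0.47 without). Slc1a5, a glutamine transporter, was 25.9 and 29.2 in CBA, 199.9 and 173.9 in Xid, and 7.0 and 31.3 in Btk KO; it passed against Btk KO with the block (0.046) and missed against CBA (0.067). Cd47, the ligand that restrains phagocytes through Sirpa, was 784.7 and 505.2 in CBA, 1754.6 and 1396.1 in Xid, and 916.7 and 627.1 in Btk KO. It rose against CBA with the block (1.31, adjusted p = 0.023) and did not pass against Btk KO (1.04, 0.10); a second Cd47 set differed from CBA by 0.50. None of the 8 macrophage genes passed in this contrast with all arrays. Mrc1, Vcam1 and Spic differed between Xid and Btk KO by -1.11, -0.86 and -0.91, with adjusted p = 0.28, 0.32 and 0.31 with the block. Csf1r, C1qb, C1qc and Ctsd were also lower in Xid than in Btk KO, at -0.30, -0.59, -0.54 and -0.61. Apoe went the other way and was higher in Xid, at 1.01 (limma adjusted p = 0.18 with the block).

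Gene lists for the cell types and pathways of the spleen were described by counts and medians, with no test. The background for all lists is that, of the 7453 probe sets, both Xid arrays lay above both CBA arrays in 17.0% and below in 14.4%, and 27.8% were higher and 25.4% lower in both runs. Over the 5596 genes measured, each by its brightest probe set, the median difference was 0.01, and an unadjusted p under 0.05 was reached by 255 genes without the block (4.56%) and by 441 with it (7.88%). The macrophage and monocyte list had the largest median. Of its 30 genes on the array 25 were measured, and their median difference was 0.93, or 0.77 in run 1 and 1.11 in run 2. Both Xid arrays were above both CBA arrays in 18 and below in 1, and 8 rose with the block, with 14 at an unadjusted p under 0.05 without the block and 20 with it (0 calls without the block, limma). Summed over the list, the intensity was 5429.7 and 8068.9 in CBA and 10164 and 15891 in Xid, against 15369 and 20721 in Btk KO. No defining marker was at 0 in CBA. In bulk RNA, a change in the share of cells of a type and a change in RNA per cell cannot be told apart. The part of macrophage cells in the differences of the genes above was not tested.

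Members of the macrophage list that did not pass mostly shared the direction. Sirpa was 124.6 and 154.7 in CBA and 246.2 and 338.9 in Xid, a difference of 1.03 (limma adjusted p = 0.083 with the block). Hmox1, the heme oxygenase that red pulp macrophages use on red cell heme, was 750.1 and 978.4 against 1355.0 and 1866.4, a difference of 0.89 (0.13). Aif1 differed by 1.13. Lyz2, the lysozyme of myeloid cells, was 195.2 and 151.0 against 140.7 and 301.4 and had opposite signs in the runs. Cybb, of the phagocyte oxidase, was the single member lower in both runs, at 199.4 and 375.7 against 152.7 and 197.7. Marco, Axl, Itgam, Fcgr3 and Msr1 were too dim to test.

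**Figure D3:**
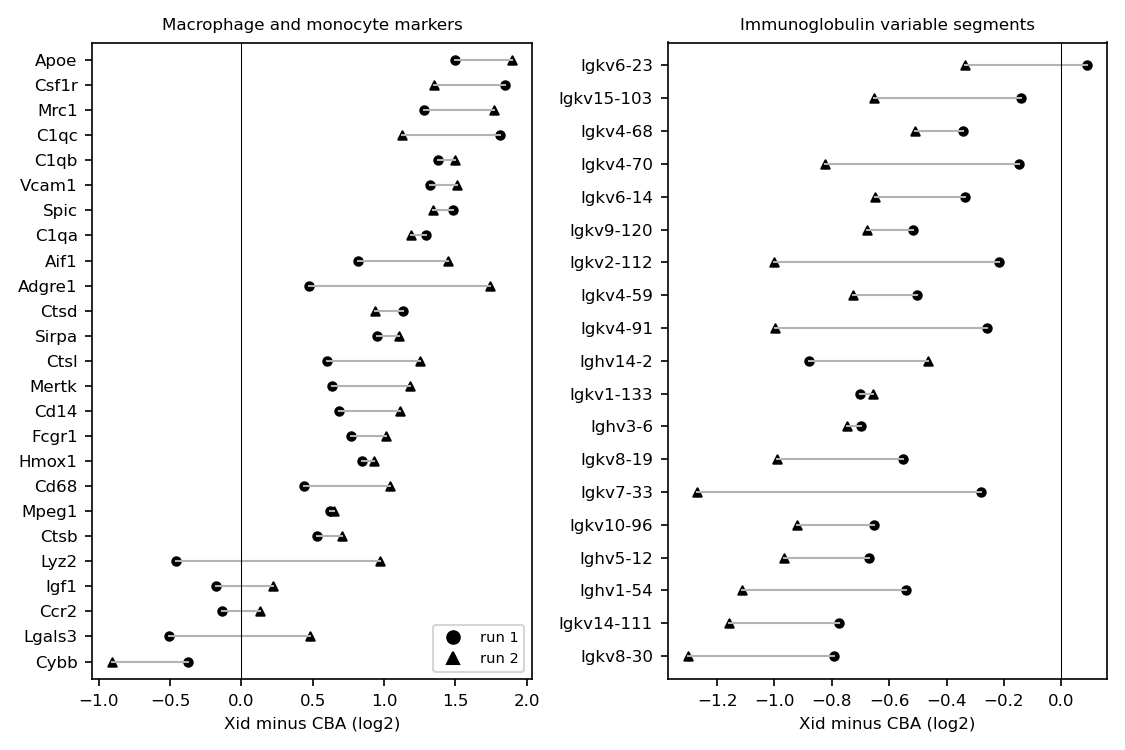
Log2 difference Xid minus CBA of each measured macrophage and monocyte marker (left) and immunoglobulin variable segment (right); circles are run 1 and triangles run 2. Of the 25 markers 20 are above 0 in both runs, and of the 19 segments 18 are below 0 in both.

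Markers of other cell types that a B cell preparation could hold had smaller medians. NK and cytotoxic genes had a median of 0.44 over 12 genes, with 8 higher in both runs and 0 passing in either limma fit (0 at an unadjusted p under 0.05 without the block and 4 with it); Gzma, a granzyme, was 86.0 and 128.9 in CBA and 144.7 and 291.4 in Xid. Neutrophil genes had a median of 0.06 over 9. S100a8, a neutrophil calcium-binding protein, was 50.9 and 64.5 in CBA and 65.4 and 50.0 in Xid, while Btk KO had 267.1 and 629.3. The overlap of CBA and Xid in S100a8 shows no separation of these groups there. T cell genes had a median of 0.24 over 9, erythroid genes 0.29 over 15, dendritic cell genes 0.24 over 10, and stromal and endothelial genes 0.28 over 9. Platelet genes were measured for 2 members only. The B lineage list had a median of -0.08 over 17 genes, and its summed intensity was 36716 and 37026 in CBA and 39138 and 30443 in Xid.

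Immunoglobulin variable segments were lower in Xid across most of the list. Of 19 measured segments, 18 were lower in both runs and 0 higher in both, and both Xid arrays lay below both CBA arrays in 11. The median was -0.67, or -0.52 in run 1 and -0.82 in run 2, and none passed limma (0 in either fit; 2 at an unadjusted p under 0.05 without the block and 13 with it). Igkv8-30, a kappa segment, was 767.0 and 1074.6 in CBA and 440.6 and 432.1 in Xid, a difference of -1.05 (adjusted p = 0.19 with the block). Igkv8-19 was 1650.5 and 2523.1 against 1123.3 and 1267.3. Igkv14-111 was 679.6 and 2248.9 against 394.5 and 1005.0. In this Igkv14-111 set, 100682_f_at, the array of run 2 was brighter than that of run 1 in both groups. The groups overlapped there, although Xid was lower within each run. Another Igkv14-111 set, 96974_at, was 412.8 and 511.9 against 230.7 and 213.4, without overlap, and 100683_r_at differed by -0.02. Igkv6-23, the brightest, was 10873.5 and 9644.1 against 11573.5 and 7639.6 and had opposite signs. The median depended on CBA: it was -0.19 without CBA of run 2 and -1.08 without CBA of run 1, and it was -0.44 without Xid of run 1. Segments share sequence, so probe sets of this list are not independent.

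The immunoglobulin constant genes and the J chain differed in direction among themselves. Ighm, the heavy chain of IgM, was 10729.8 and 10623.2 in CBA and 12317.5 and 7561.8 in Xid on its brightest set, a difference of -0.15. Its other 8 kept sets ranged from -0.94 to 0.61. Ighd differed by -0.13. Jchain, which joins IgM and IgA chains in secreting cells, was 883.9 and 1165.6 against 535.0 and 366.4. Both Xid arrays were lower, and the difference of -1.19 did not pass (limma adjusted p = 0.13 with the block). Igha was 998.2 and 380.3 against 1575.7 and 802.3, a difference of 0.86, and its other sets had 0.75 and -0.76. Plasma cell and secretory genes as a list had a median of -0.14 over 17, and Dnajb9, a chaperone of the endoplasmic reticulum, differed by 0.85 in the opposite direction.

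In B cell receptor signalling Nfatc1 fell with the block and no other gene passed. Of 53 on the array 48 were measured, with a median of -0.10, 9 higher and 21 lower in both runs, and 3 were at an unadjusted p under 0.05 without the block and 8 with it. Syk, the kinase upstream of Btk, was 1876.3 and 1931.7 in CBA and 1948.3 and 1679.3 in Xid. Plcg2, the phospholipase that Btk activates, was 459.9 and 568.4 against 461.1 and 520.3. The groups overlapped in both genes. Txk, another Tec family kinase, was 9.5 and 20.2 against 39.2 and 69.2, a difference of 1.53 near the floor that did not pass (limma adjusted p = 0.13 with the block). Map2k1, a kinase of the ERK route, was 196.9 and 209.5 against 346.8 and 332.4, with 195.7 and 195.8 in Btk KO, and differed by 0.73 (0.16). Blk, a Src family kinase, differed by -0.56. Among inhibitory receptors, Cd22 was 990.5 and 912.7 against 752.9 and 687.3, a difference of -0.40, and Cd72 differed by -0.45. Ptpn22, a phosphatase of antigen receptor signalling, was 336.3 and 551.0 against 203.4 and 211.6, a difference of -1.03 (0.18).

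Survival genes below the receptor included Bcl2, which was lower on each of its probe sets. The brightest was 434.8 and 399.0 in CBA, 253.2 and 169.9 in Xid, and 195.5 and 164.6 in Btk KO. Both Xid arrays lay below both CBA arrays, with a difference of -0.99 ± 0.24 that did not pass (limma adjusted p = 0.098 with the block). The other Bcl2 sets differed by -0.80 and -0.65. The death-promoting genes Bid and Bcl2l11 differed by -0.86 and -0.52, while Mcl1 and Bcl2l1, which protect cells, differed by -0.04 and 0.10. The list of 16 apoptosis genes had a median of 0.00. NF-kB genes had a median of 0.05 over 26, and Nfkbia, the inhibitor that NF-kB induces, was 802.9 and 934.3 against 1096.6 and 900.5. In the calcium channel list of 10, Mcoln2 was the single member to pass, and Stim1, the calcium sensor of the endoplasmic reticulum, differed by 0.01.

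**Figure D4:**
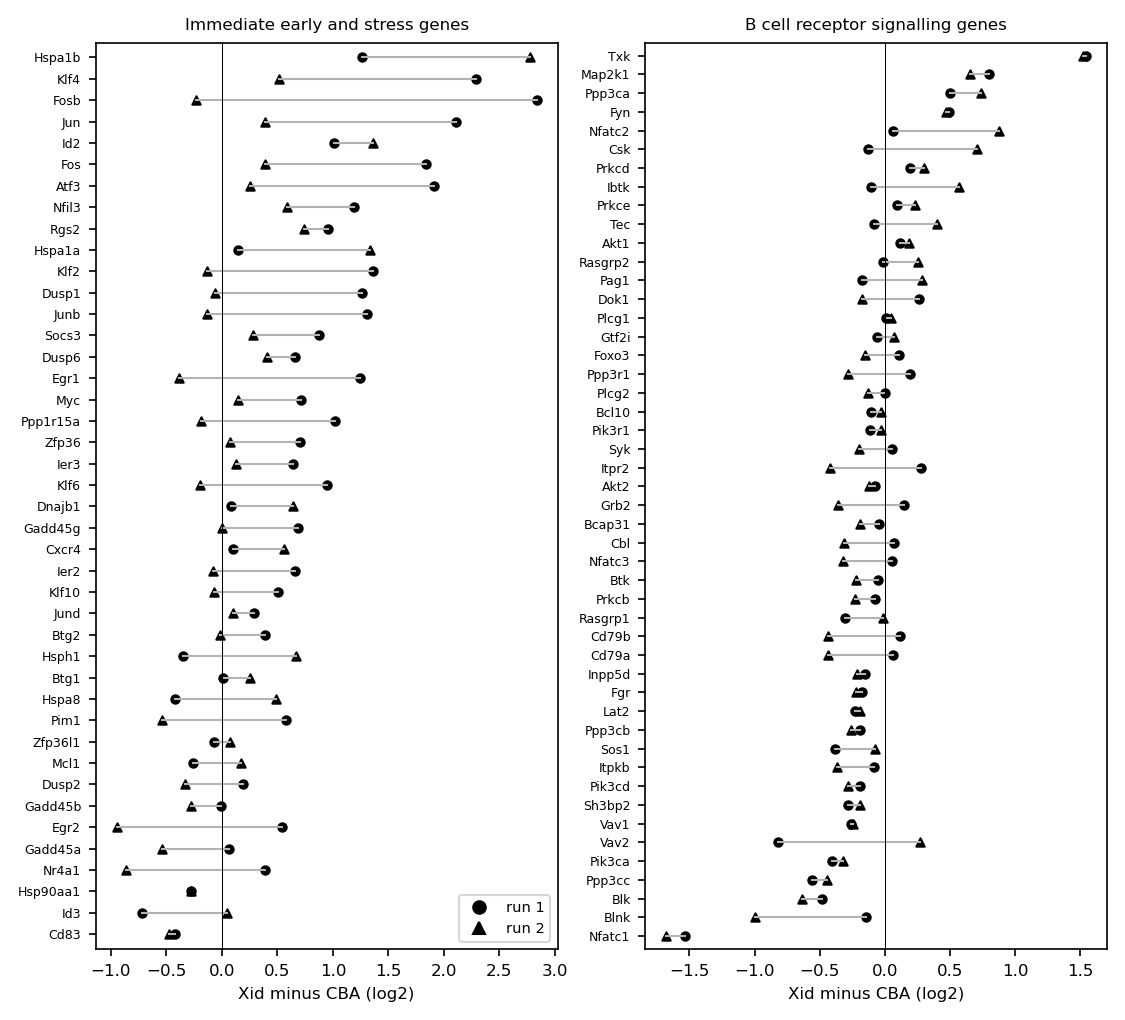
Log2 difference Xid minus CBA of each measured immediate early or stress gene (left) and B cell receptor signalling gene (right); circles are run 1 and triangles run 2. Jun, Fos and Klf4 are far right in run 1 (2.11, 1.84 and 2.29) and nearer 0 in run 2 (0.39, 0.39 and 0.51), while Nfatc1 is at -1.54 and -1.68.

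Markers of B cell subsets gave mixed values, none of which passed limma (0 in either fit). At an unadjusted p under 0.05 with the block there were 3 in the marginal zone, 3 in the follicular and 6 in the immature list, and 3, 2 and 5 without it. In the marginal zone list, with a median of -0.13 over 13 genes, Cd9 was 176.5 and 125.3 in CBA and 43.0 and 65.7 in Xid (-1.38), and S1pr3, a sphingosine phosphate receptor, was 151.1 and 190.2 against 83.5 and 98.3 (-0.86). The defining markers Cr2 and Cd1d1 differed by -0.13 and -0.05, each with opposite signs in the runs. In the follicular list, with a median of -0.12 over 11, Cxcr5, the receptor that guides B cells into follicles, was 419.4 and 399.2 against 227.2 and 285.7 (-0.67). Fcer2a, the low affinity IgE receptor of mature B cells, differed by -0.54, and Bcl6 by -0.85. Both Xid arrays lay below both CBA arrays for Cd9, S1pr3, Cxcr5 and Bcl6, but Fcer2a overlapped. The immature and transitional list had a median of 0.34 over 19, with both Xid arrays above in 12 and below in 4. There Cnn3 was 283.9 and 244.3 against 423.6 and 455.3 (0.72), Ly6d was 931.5 and 948.7 against 1743.2 and 1311.6 (0.68), and Cd93, a marker of transitional cells, differed by 0.30. Rag1, a recombinase gene of precursors, went the other way, at 64.4 and 38.7 against 22.0 and 10.7 (-1.38). Vpreb3 differed by 0.59, but its second set by -0.58. B-1 markers were measured for 4 genes, with a median of 0.11, and Cd5 was too dim.

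Immediate early and handling stress genes differed by run. Their median over 42 genes was 0.37, composed of 0.65 in run 1 and 0.08 in run 2. Fos was 516.8 and 727.9 in CBA and 1863.0 and 957.1 in Xid. Jun was 41.8 and 66.5 against 199.9 and 89.1, and Klf4 was 46.9 and 87.3 against 251.9 and 127.1. The Xid array of run 1 was the highest of the 4 in each of these. Its Gapdh ratio, 1.61, was the highest of the 4, and for actin the ratio was 1.66 on both the CBA and the Xid array of run 1. Id2 was the single member to pass, with the block. Hspa1b, a heat shock gene, had its largest value on the other Xid array, at 10.4 and 17.9 against 33.3 and 157.3. The parts of cell handling and of RNA quality in these values were not tested.

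**Figure D5:**
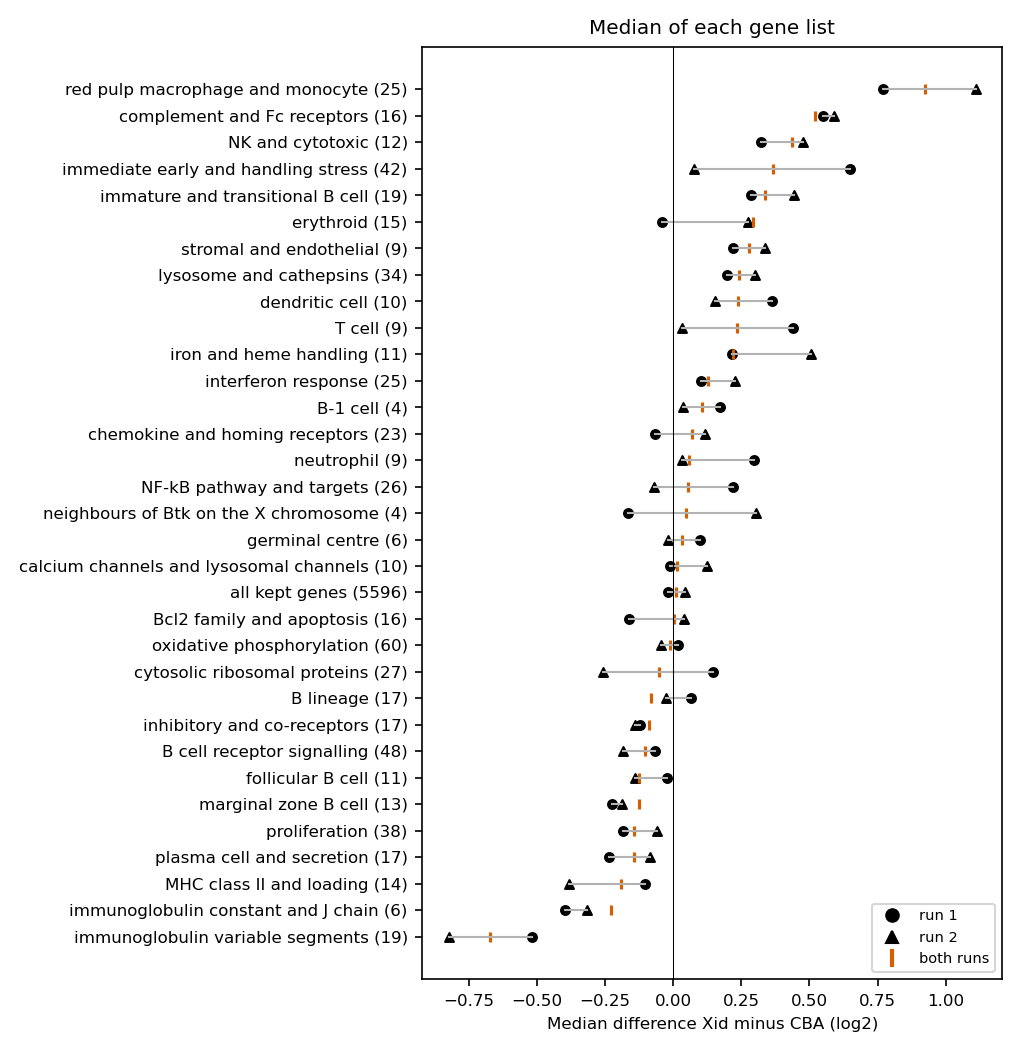
Median log2 difference Xid minus CBA of each gene list with at least 3 measured genes (number in brackets) and of all 5596 measured genes; circles are run 1, triangles run 2 and orange bars both runs. The macrophage list (0.93) and the immunoglobulin variable segments (-0.67) lie at the ends, and the immediate early list spans 0.08 to 0.65.

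Medians of the remaining pathways lay between -0.19 and 0.52. Complement and Fc receptor genes had a median of 0.52 over 16, with both Xid arrays above in 10 and below in 0. C2, a complement protease, was 26.2 and 31.0 in CBA and 60.8 and 60.9 in Xid (0.95), and Cfp, properdin, differed by 0.70. Lysosome genes had a median of 0.24 over 34, with 24 higher in both runs, and iron and heme genes 0.22 over 11. Proliferation genes had a median of -0.14 over 38, with 17 lower and 6 higher in both runs; Ccnd2, a D-type cyclin, was 56.1 and 94.9 against 38.2 and 27.6 (-1.04), and Mki67 overlapped at 65.7 and 52.5 against 32.8 and 52.5. Genes of MHC class II loading had a median of -0.19 over 14, while Cd74 differed by -0.09 and H2-Aa by -0.03. Interferon genes had a median of 0.13 over 25. Within them Ifi202b stood apart, at 35.2 and 27.6 in CBA, 1.5 and 10.6 in Xid, and 82.5 and 91.7 in Btk KO, a difference from CBA of -1.74 that did not pass (limma adjusted p = 0.18 with the block). In the list of chemokine and homing receptors, with a median of 0.07 over 23, Ccr1 was the single member that passed and the decoy receptor Ackr2 was 65.6 and 81.6 against 26.9 and 15.1 (-1.59, 0.16). Germinal centre genes, ribosomal proteins and oxidative phosphorylation had medians of 0.03 over 6, -0.05 over 27 and -0.01 over 60. In the lists of this paragraph, where a gene counts by its brightest probe set, Ccr1, Ctsd, Hfe, C1qb and C1qc were the members that passed limma, each with the block alone. The Ctse set that passed in both fits is not the brightest of its gene.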

How the data were processed

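Total RNA of splenic B cells was read on 6 arrays. The deposited intensity values, 1 per probe set, were scaled by the authors before deposit (equal 2% trimmed means of 100.1); the probe summary software is not given in the sources used here. Other header fields, per the file headers, gave chip lot and hybridisation day. Values went to log2 after adding 6, and probe sets under the 40th percentile of the mean (about 19.8) were left out, 4969 in all. Symbols came from the probe annotation (10833 probe sets with 1 symbol, 396 with several, 1193 with none); 10817 matched the gene table of GRCm38.p6. limma 3.58.1 in R 4.3.3 fitted the 3 group means (lmFit, eBayes with trend, 3 residual degrees of freedom), two-sided, with Benjamini-Hochberg adjustment over 7453 probe sets. The test was checked on simulated data.

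The replicate numbers pair the samples: the design text gives new mice for the second set, and lots followed the numbers. CBA and Xid shared a hybridisation day in each run; Btk KO of run 1 had a day of its own. Deviations from group means of same-numbered arrays had correlations of 0.31 (CBA, Xid), 0.37 (CBA, Btk KO) and 0.44 (Xid, Btk KO). A fit with the run as a block is therefore given beside the results.

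The genes and lists were chosen with earlier results of these data known. Named are Btk, every probe set passing without the block, up to 20 higher and 20 lower with 1 symbol passing with it, filled to 8 by p, each list's defining markers and up to 6 members with the smallest p, the 10 largest differences of run 1, immunoglobulin members, neighbours of Btk, and further probe sets of passing genes. Outside this rule, 97448_at, Fli1, Lyz2, Cybb and the genes called too dim were named after their values were seen. Alternatives were the block, normalization, pseudocount, filter, trend, arrays in the fit and each array left out.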

Additional observations from a re-analysis of the deposited data

How the results depend on the processing

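The count of 5 called probe sets without a block became 36 with the replicate block, 3 with a pseudocount of 1, 8 with a pseudocount of 32, 9 with only the CBA and Xid arrays and 80 with those arrays and the block. Leaving out each of the 6 arrays gave 0 to 9. The 36 calls with the run block became 80 with only the CBA and Xid arrays, and 4 to 76 with each of the 6 arrays left out. These leave-out fits with the replicate block, and those without Btk KO of run 2, were chosen after seeing the data. The block leaves the fitted differences as they are in this balanced design and changes their errors. The cause of the changes in the counts was not tested. Quantile normalization gave 4 calls, median centring 5, no filter 5, a stricter filter 4 and no intensity trend 4.

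The Snrp1c-ps2 difference of -0.47 lay between -1.61 and 0.67 when 1 array was left out, and was 0.59 without Xid of run 1. The macrophage median lay between 0.66 and 1.26, and the median of immunoglobulin variable segments between -1.08 and -0.19. Of probe sets that differed by at least 1 in run 1, 247 of 364 kept the direction in run 2; the count was 78 of 102 with a pseudocount of 32, 615 of 1040 without a filter and 103 of 128 with the stricter one, which change the number of probe sets that reach that size. With 2 arrays per group and no detection calls, dim signals, such as the CBA values of 93321_at and Tspan4, set no firm size of change.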
